A study of Equus caballus with 12 samples.

Results

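The miR-8908 family is a group of horse miRNA names whose levels were high in liver libraries of this series, and the 9 members described here are eca-miR-8908b, eca-miR-8908c, eca-miR-8908d, eca-miR-8908e, eca-miR-8908g, eca-miR-8908i, eca-miR-8908j, eca-miR-8908k and eca-miR-8908l (eca, for Equus caballus, is left out from here on). They were taken by name from the 294 known miRNAs of a table of 629 entries and followed as single members and as their sum in each library. They were selected on their measured levels in these libraries, which were higher in liver than in lung and heart, so those 2 differences are a description and carry no test. The table holds 12 miR-8908 names in all, and the other 3, miR-8908f, h and m, were kept apart from the sum.

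The study profiled small RNA in the right liver lobe, the caudal lobe of the right lung and the left heart ventricle of 4 healthy Polish cold-blooded stallions aged 1 to 2 years, sampled at slaughter. One library per tissue and horse gave 12 libraries, 4 per tissue, and the horses carry the numbers 27, 30, 32 and 34. Each library comes from a piece of whole tissue, so fewer cells of a type and less RNA per cell cannot be told apart. Values are counts normalized by the authors, in which a library's reads were divided by a size factor.

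A miRNA is a short RNA, cut from a hairpin precursor, that guides the silencing complex to messenger RNAs through its seed, bases 2 to 8. Copies of miRNA genes often lie in clusters on the X chromosome, and the region between SLITRK2 and FMR1 is known in mammals for the miR-506 family, which is best known from testis. Roles of single miR-8908 members are not given in the sources used here. Near-identical copies can share reads, and how the authors' counting divided such reads between names was not tested.

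In the RefSeq horse annotation (assembly TB-T2T, used only for names and order, since the files were made on another build) the family has 28 precursor records under 14 names, all on chromosome X. Of these, 27 follow each other with no other gene record in between, from MIR8908D-2 to MIR8908H. The run lies between MIR9143, next to a long noncoding RNA and SLITRK2, and MIR9142. The 28th record, MIR8908N, stands apart, among the records of the miR-506 family and next but one to FMR1. The names miR-8908a and miR-8908n were not among the miR-8908 names with values here, so no levels are given for them.

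The 9 members account for 19 of these records: 5 for miR-8908b, 3 for c, 2 each for d, g, k and l, and 1 each for e, i and j. Both g records overlap each other, as do both l records. The number of records did not order the levels: miR-8908j, with 1 record, had the third highest mean in liver, while miR-8908f, with 4, had the lowest of the 12 names. Across the 12 names, Spearman's rho between records and mean liver level was 0.15, a description over names that share libraries and possibly reads. It was -0.13 without miR-8908b and 0.41 without miR-8908f.

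One sequence of the family can be shown from the deposited table itself, because an entry named by its sequence has the same value as miR-8908k in all 12 libraries. It is printed 5′ to 3′ with bases 2 to 8 in capitals:
entry with the values of miR-8908k: uAUUCGGCaccuucuggguagcg
It is 23 bases long. That both entries hold the same reads was not tested, although equal values in 12 libraries were seen for only 3 known names, the others being miR-8934 and miR-8992, each above 0 in 1 library. Among the other 334 entries named by sequence, none lay within an edit distance of 3 of it with at least 16 bases aligned, and none shared its bases 2 to 8. The nearest were at an edit distance of 5.

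The libraries carried the markers of their tissues. miR-122, the main miRNA of hepatocytes, had 948651 to 1359774 normalized counts in liver, 234 to 2294 in lung and 737 to 3116 in heart. miR-1, a striated muscle miRNA, was at 4465396 or more in every heart and at 5920 or less in every liver, and miR-34c, known from multiciliated cells, was at 14934 or more in every lung. Of the 5 hepatocyte miRNAs of the list found in the table, the sum was 1348482 to 1902402 in liver, against 280577 or less in lung and 153329 or less in heart. All values of a library are whole multiples of its lowest value divided by 6, the minimum read count of the study (100% within 0.01), which gives 3066869 to 9355513 reads in the table per library. That the lowest value stands for 6 reads was taken from the methods and not established from the files, and every read number and counting interval given here rests on it. On that basis a value of 0 means fewer than 6 reads under a name, or less than 3.71 to 11.1 normalized counts.

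All 9 members were above 0 in every liver and listed at 0 in every heart, and 5 of them were above 0 in some lung. The family sum was 5783, 12768, 2716 and 2680 normalized counts in the livers of horses 27, 30, 32 and 34. In the lungs of the same horses it was 0, 41.4, 41.4 and 0, and in the hearts it was listed at 0 throughout. The lowest liver sum thus stood far above the highest lung sum, with no overlap. The mean was 5987 ± 4749 in liver, against 20.7 ± 23.9 in lung (SD, n = 4 each). On the log2(sum + 1) scale liver exceeded lung by 9.53 and heart by 12.23, values that depend on the pseudocount because many entries are at 0.

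**Figure D1:**
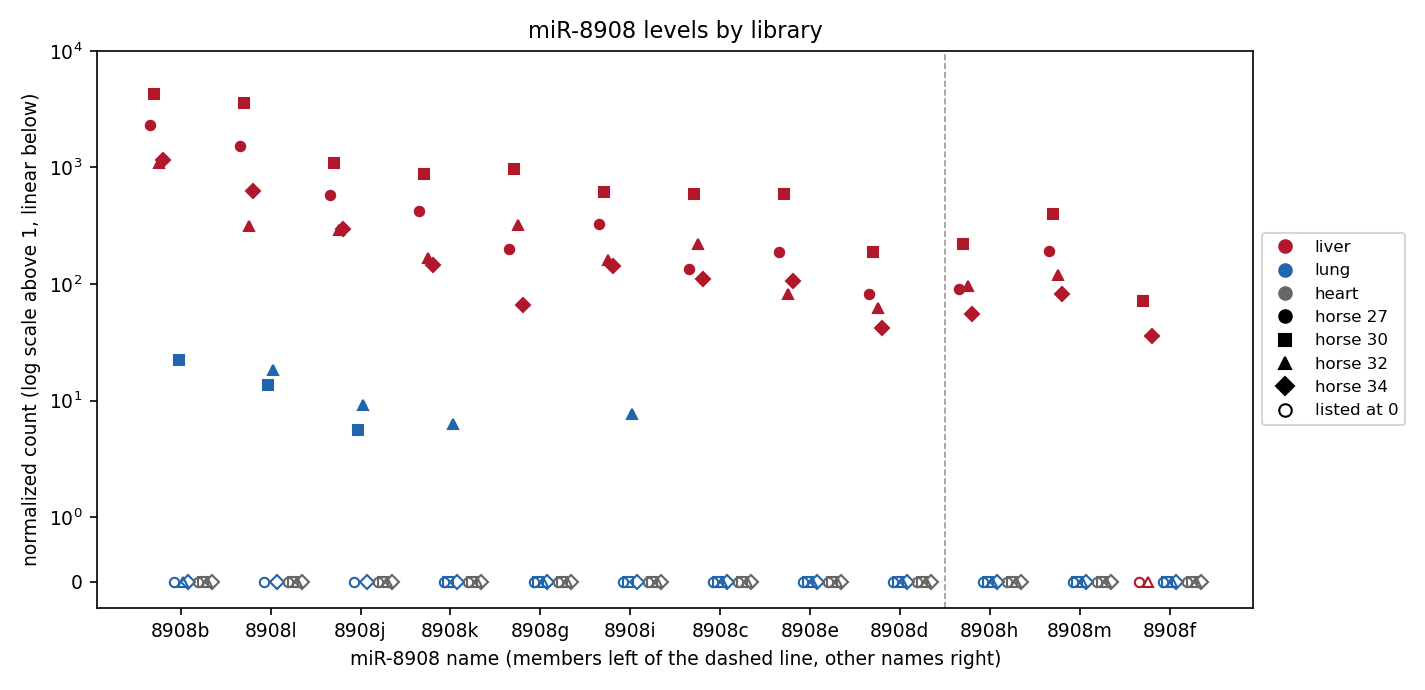
Normalized counts of the 9 members and of 3 other miR-8908 names in each library, with liver left of lung and lung left of heart; shapes are horses, and open symbols are values listed at 0. The lowest member value in liver is 42.3 and the highest outside liver is 22.3, while no heart value is above 0.

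The lowest single value of a member in liver was 42.3, for miR-8908d in horse 34, and the highest outside liver was 22.3, for miR-8908b in the lung of horse 30. Every member therefore had all 4 livers above all 8 lungs and hearts, which held for 19.1% of the 256 known miRNAs tested, and was listed at 0 in every heart, which held for 8.2%. Both counts restate what the members were chosen for. In the fit over all known miRNAs on log2(normalized count + 1), the median member difference was 8.03 in liver over heart, against 0.23 over all tested miRNAs, and 7.55 in liver over lung, against -0.08. The members ranged between 6.33 and 10.88 in liver over heart and between 6.33 and 9.75 in liver over lung. All 9 passed the filter on low values, which a high level in the 4 livers is enough for, and an adjusted p under 0.05 with a log2 fold change of at least 1 there, where 27% of the tested miRNAs were called higher in liver than in heart and 26.6% higher than in lung, and nothing is read from that.

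miR-8908b was the most abundant member, with 2329, 4292, 1100 and 1146 normalized counts in the livers of horses 27, 30, 32 and 34. Its only value above 0 elsewhere was 22.3, in the lung of horse 30. It ranked 79th by mean among the 266 known miRNAs above 0 in liver, and the sum of the 9 members would rank 50th. miR-8908l followed, with 1521, 3561, 313 and 625 in the same livers, and reached 13.6 and 18.2 in the lungs of horses 30 and 32. The liver of horse 32 was the lowest for it, and the liver of horse 30 was 11.4 times higher. miR-8908j had 579, 1084, 292 and 297 in liver, and 5.56 and 9.12 in the lungs of horses 30 and 32.

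miR-8908k, the name that shares its values with the sequence shown above, had 422, 883, 166 and 144 normalized counts in the livers of horses 27, 30, 32 and 34, and 6.31 in the lung of horse 32. miR-8908g had 200, 977, 320 and 65.4 in the same livers and was listed at 0 in all lungs. It had the widest range of the members, 14.9-fold between the livers of horses 30 and 34. miR-8908i had 329, 612, 161 and 143 in liver, and 7.72 in the lung of horse 32. The liver of horse 30 was again the highest for each of these 3 members.

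miR-8908c had 133, 586, 220 and 111 normalized counts in the livers of horses 27, 30, 32 and 34. In miR-8908e they were 189, 587, 81.5 and 107. miR-8908d was the least abundant member, with 81.4, 187, 62.4 and 42.3, at 178th place among known miRNAs in liver. These 3 members were listed at 0 in every lung and heart, so no fold against those tissues is given.

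Lung and heart were compared with each other as well, although low levels in both were part of the choice of the members and every heart was at 0. The sum on the log2 scale was 2.70 higher in lung, where 2 of 4 libraries were above 0, than in heart, where none was. An exact two-sided permutation test over the 4 lungs and 4 hearts gave p = 0.43. The smallest p this design allows without ties is 0.0286. Both sums above 0 were already in lung, and the rest were tied at 0. No smaller p than 0.43 was therefore possible, and nothing is read from it. In the limma fit none of the 9 members was called between lung and heart, against 38.7% of the 256 known miRNAs, and none had an unadjusted p under 0.05. Since all 9 passed the filter through liver and 4 of them, c, d, e and g, were listed at 0 in all lungs and hearts, that count was largely fixed beforehand and nothing is read from its distance to 38.7%. The largest difference was 2.03 ± 1.05 (SE) for miR-8908l, with an adjusted p of 0.14 by limma. The lowest adjusted p by limma was 0.13, for miR-8908j. All member p-values here carry the same limit as the count, and nothing is read from them. The SE comes from a spread shared by all 3 tissues, while every heart was at 0.

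The lungs with the family were those with the highest miR-122, and also those with the most derived reads. Horses 30 and 32 had 7507267 and 7560746 reads in lung, against 6173211 and 3536536 in horses 27 and 34. The lowest value listed was 3.71 and 4.21 in the first 2 lungs, against 4.83 and 6.79 in horses 27 and 34. In the lungs of horses 27, 30, 32 and 34 miR-122 was 234, 2294, 1746 and 1359 normalized counts, and the family sum was above 0 in horses 30 and 32. Per 1000 counts of miR-122 the sum was 18.1 and 23.7 in those 2 lungs, against 12.2 and 2.86 in the livers of the same horses. The heart of horse 34 had more miR-122 than any lung, 3116 counts, with every miR-8908 name listed at 0 at a minimum of 10.1 counts for a name. In the liver of horse 34 the sum was 2.30 per 1000 counts of miR-122. At that ratio the sum in this heart would lie below the minimum for a single name, so nothing is read from its values of 0. The same holds for the lung of horse 34. What part liver RNA in the lung libraries, or their depth, has in these values was not tested.

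The livers differed from each other more in this family than in most miRNAs. The sum was 4.76 times higher in the liver of horse 30 than in that of horse 34, with counting intervals of 12570 to 12968 in horse 30 and 2598 to 2764 in horse 34 (95%, exact Poisson, counting error only). Without horse 30 the ratio of highest to lowest was 2.16. As a share of known miRNA counts the sum was 0.104, 0.264, 0.0625 and 0.0484% in the livers of horses 27, 30, 32 and 34. The Wilson 95% interval of the share was 0.26 to 0.268% in horse 30 and 0.047 to 0.0499% in horse 34.

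The coefficient of variation over the 4 livers was 79.3% for the sum and 66.1 to 103.6% for the members. The median over 179 known miRNAs outside the family, each with a liver mean of at least 50, was 23.5%. Those 179 lay below miR-8908j, the least variable member, in 93.9% of cases, and below g, e and l in 97.8%. miR-8908d, with the fewest reads, had 44 to 232 reads in a liver. This is a description of 4 horses, with no test, and the members share libraries and possibly reads.

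**Figure D2:**
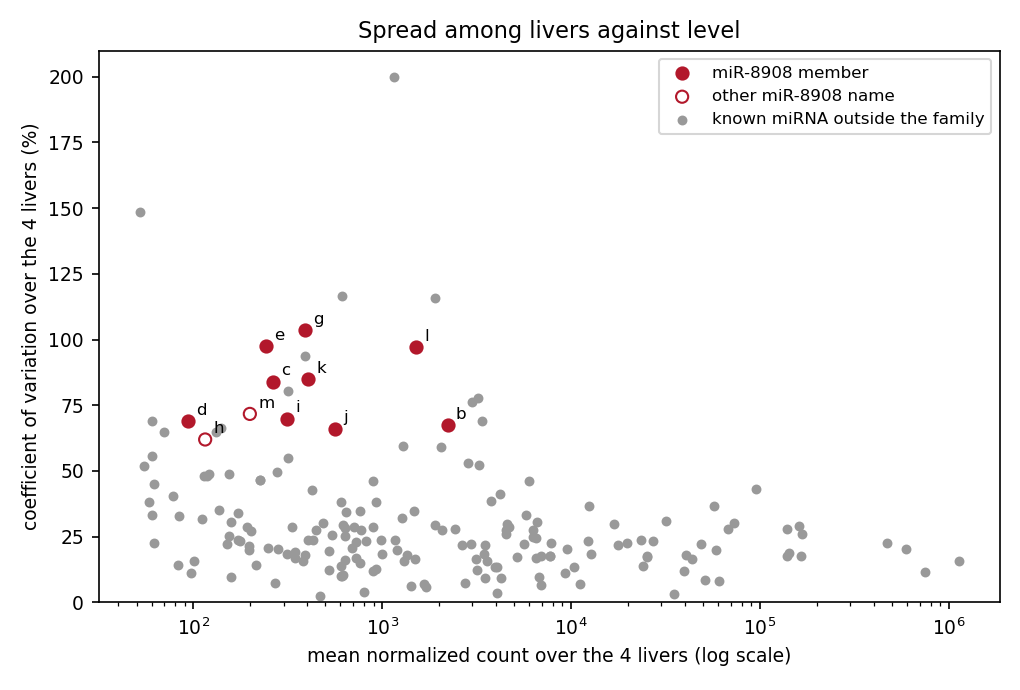
Coefficient of variation over the 4 livers (%) against the mean normalized count (log scale) for known miRNAs with a liver mean of at least 50, with miR-8908 names in red and labelled by letter. The 9 members lie between 66.1 and 103.6%, where the median of 179 miRNAs outside the family is 23.5%.

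The order of the horses was shared. The liver of horse 30 was the highest for all 9 members, where 29.6% of the 179 miRNAs outside the family had their highest value in that liver. The liver of horse 27 came second for 7 members, and that of horse 32 for the other 2, c and g. The lowest was horse 34 for 5 members and horse 32 for 4. Over the mean of the other 3 livers, horse 30 was 2.78 to 5.01 times higher in the members. The median of that ratio outside the family was 1.01, and 2 of the 179 miRNAs reached 2.78, namely miR-1307 at 3.67 and miR-133a at 3.36, both named after their values were seen.

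Other features of the liver of horse 30 can be set beside this. Its hepatocyte list was 0.89 times the mean of the other livers and miR-122 was 0.902 times, so neither was higher with the family. Its striated muscle list was 1.72 times that mean, with miR-206, miR-208a and miR-208b at 0 in all livers. That list was higher still in the liver of horse 34, at 6447 normalized counts against 5710 in horse 30. The mesenchymal and smooth muscle list was 1.28 times the mean of the other livers. Both this list and the epithelial list were highest in the liver of horse 27. Epithelial miRNAs were at 1.11, red blood cell miRNAs at 1.31, leukocyte miRNAs at 0.74 and neural and endocrine miRNAs at 0.861 times. The red blood cell list had 6421, 6888, 5229 and 4150 normalized counts in the livers of horses 27, 30, 32 and 34. It was highest in horse 30, and its order of livers was that of the family sum. The multiciliated list was at 3.24 times, but at no more than 118 counts in any liver, against 18721 or more in every lung. The part of these cell types in the family's level was not tested.

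**Figure D3:**
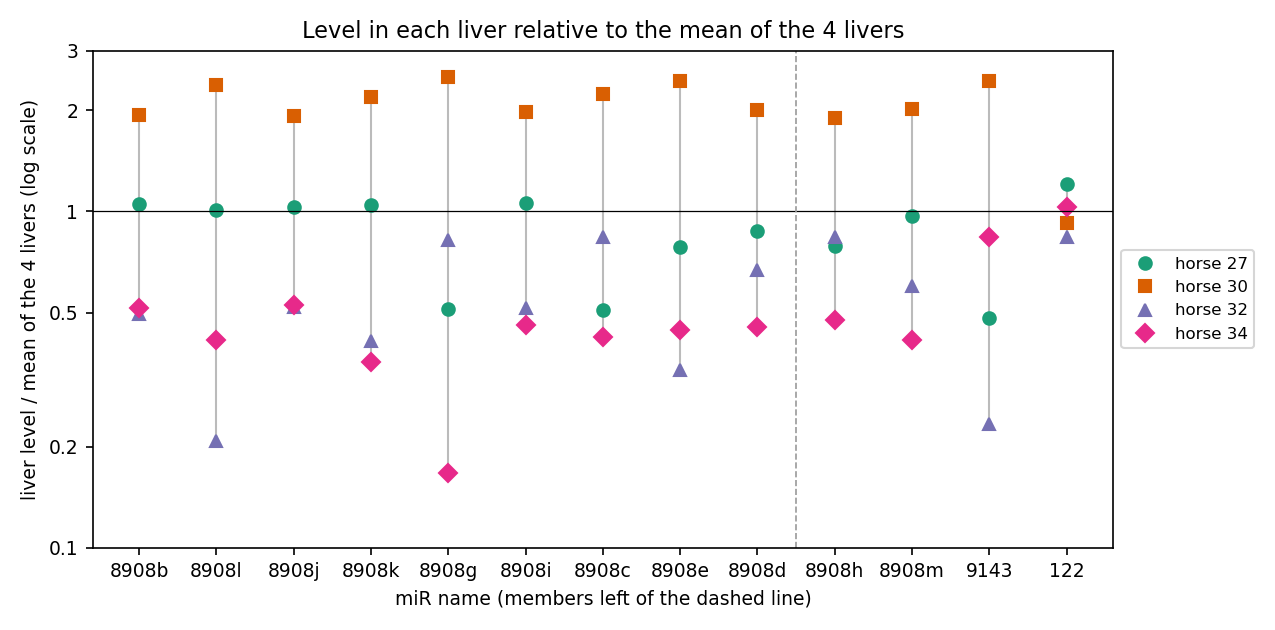
Level in each of the 4 livers over their mean (log scale) for the 9 members, for miR-8908h and m, for the neighbouring miR-9143 and for miR-122. Horse 30 is the highest in the 9 members, h, m and miR-9143, and lies below the mean in miR-122.

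The makeup of the sum was shared in part. miR-8908b made up 40.3, 33.6, 40.5 and 42.8% of the sum in the livers of horses 27, 30, 32 and 34, a mean of 39.3 ± 3.9% (SD, n = 4). miR-8908l made up 26.3, 27.9, 11.5 and 23.3%, j 10.1 ± 1.2%, k 6.42 ± 0.86%, g 6.33 ± 4.28%, i 5.43 ± 0.49%, c 4.79 ± 2.43%, e 3.71 ± 0.72% and d 1.69 ± 0.41% on average. Members b and l together held 52 to 66.6% of the sum in each liver. miR-8908b led in all 4 livers, and d was last in all 4.

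Relative to miR-8908b, miR-8908j kept almost the same level in all horses. The ratio of j to b was 0.249, 0.253, 0.266 and 0.259 in the livers of horses 27, 30, 32 and 34, with a highest value 1.07 times the lowest. The ratio of i to b ranged from 0.124 to 0.146, 1.17 times, and those of d, e and k to b spread 1.62 to 1.84 times. The ratios to b of l, c and g spread more widely, by 2.92, 3.50 and 5.10 times.

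The livers of horses 32 and 34 had nearly the same sum, 2716 and 2680 normalized counts, with a different makeup. miR-8908l was 313 in horse 32 and 625 in horse 34, 0.501 times as high. miR-8908g was 320 in horse 32 and 65.4 in horse 34, 4.90 times as high, and miR-8908c was 1.99 times as high. By contrast b and j differed by 0.96 and 0.984 times. The share of l was 11.5% (Wilson 95% interval 10.5 to 12.6%) in horse 32 and 23.3% (22 to 24.6%) in horse 34, and that of g was 11.8% (10.8 to 12.9%) and 2.44% (2.01 to 2.96%) in these livers. These intervals do not overlap, but they cover counting error only, and with 1 library per horse the difference between animals and that between library preparations cannot be told apart.

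**Figure D4:**
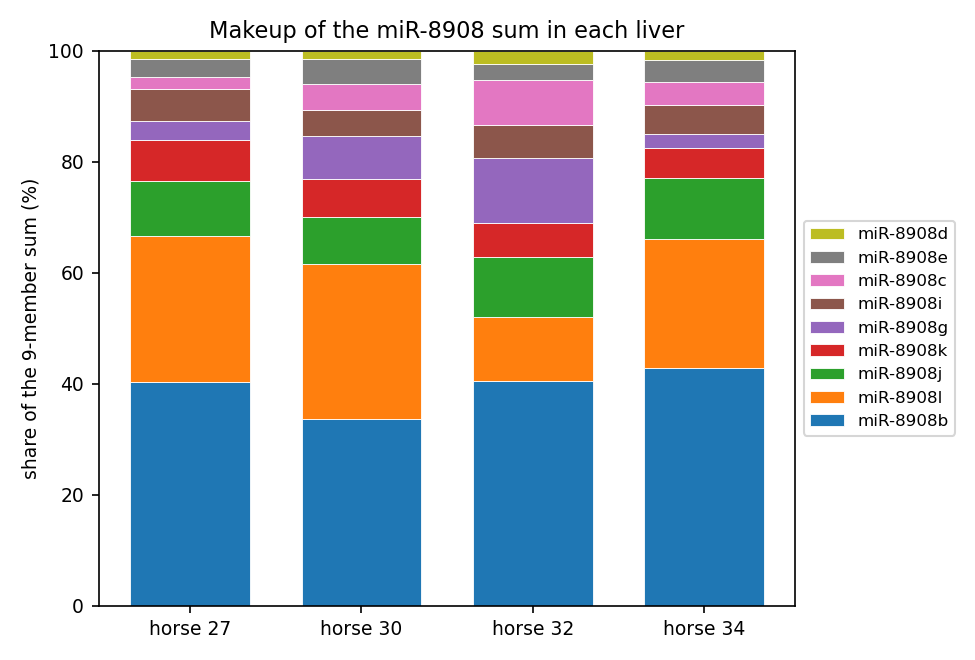
Share of each member in the 9-member sum (%) in the liver of each horse. miR-8908b holds 33.6 to 42.8% in every liver, while miR-8908l holds 11.5% in horse 32 and 23.3 to 27.9% in the other 3, and miR-8908g runs from 2.44% in horse 34 to 11.8% in horse 32.

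The other names of the family were above 0 in liver libraries alone, as were members c, d, e and g. miR-8908h had 90.6, 219, 96.9 and 54.8 normalized counts in the livers of horses 27, 30, 32 and 34, and was listed at 0 in all lungs and hearts. miR-8908m had 192, 401.5, 119 and 82.5 in liver and was also listed at 0 elsewhere. Their mean liver levels, 115 for h and 199 for m, lay above the 93.2 of member miR-8908d and below those of the other 8 members. Both names passed the filter on low values only through the livers and may share reads with the members, so their difference from lung and heart is given without a test. miR-8908f was above 0 only in the livers of horses 30 and 34, at 70.8 and 35.7, and did not pass the filter. Together the 3 names held 4.67 to 7.36% of the sum of all miR-8908 names per liver.

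miR-9143, whose record is the neighbour of the run and which was chosen after its values were seen, was low, and like the members it was highest in the liver of horse 30. It had 16.6, 84.5, 8.08 and 29.1 normalized counts in the livers of horses 27, 30, 32 and 34, 11.2 in the lung of horse 32 and 0 in the other lungs and all hearts. Below horse 30 its order differed from that of the family sum, with horse 34 second and horse 32 lowest, and its values in horses 27 and 32 rest on 9 and 11 derived reads.

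The miRNAs with the profile most like the family sum over the 12 libraries, of 282 compared by Pearson's r of log2(normalized count + 1), were miR-122 (0.94), miR-135b (0.94), miR-215 (0.94), miR-194 (0.93) and miR-372 (0.93). These values describe a contrast between tissues that the rule used. Among the livers the 5 did not share the family's order: miR-122, miR-135b and miR-372 were highest in horse 27, and miR-215 and miR-194 in horse 34. miR-372 was listed at 0 in all lungs and hearts, as members c, d, e and g were, with 932, 257, 195 and 170 normalized counts in the livers of horses 27, 30, 32 and 34. miR-194 hardly varied among livers, at 33886 to 36305.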

How the data were processed

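Small RNA of 12 libraries was measured, 4 each from liver, lung and heart of the same 4 horses. The paper's methods give trimming with Trim Galore, counting by sRNAbench on miRBase entries, with 6 reads as the minimum, and DESeq2 normalization. Trimmomatic and BWA stand beside bcl2fastq, FastQC and DESeq2 in the submitters' processing notes, none with a version. The deposited values are a signal, counts that the authors divided by a size factor per library. The deposited table also gives the authors' own comparison as a log2 fold change, a score (the Wald statistic) and a p-value, with a standard error and an adjusted p-value, none of which was used. No further column of sample values was left out (0).

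The members and lists were chosen with earlier results of these data known. Named are the 9 members, the other miR-8908 names, entries named by sequence that resemble a member, the 5 miRNAs most like the sum, marker lists as totals, and miR-122, miR-1 and miR-34c. Other names are marked in the text as picked with their values in view.

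Known miRNAs that reached 10 normalized counts in 4 or more libraries (256) were fitted on log2(value + 1) with limma 3.58.1 in R 4.3.3 (3 tissue means, trend), with Benjamini-Hochberg adjustment over all of them. A call needed an adjusted p below 0.05 together with a log2 difference of 1 or more in size. Other steps used Python 3.11.15, numpy 2.4.6, pandas 2.3.3 and scipy 1.17.1; the fit was tested on simulated data.

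The horse numbers pair the libraries, since a number is an animal. Deviations from tissue means correlated between -0.27 and 0.15 in 12 pairs of the same horse (median -0.057) and had a median of 0.028 in 36 pairs of different horses. Alternatives were other scalings, pseudocounts, filters and sums, the horse as a replicate block, and horses or libraries left out. The table holds 3066869 to 9355513 reads per library.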

Additional observations from a re-analysis of the deposited data

Results flagged for a closer look

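A check for a sample far from the other 3 was made in 25 groups of 4 values (levels in liver and lung, and shares of the sum), of which chance flags about 1 in 20. It picked out 3, each a lung value that was the only one above 0 in its group: miR-8908b at 22.3 normalized counts in horse 30, miR-8908i at 7.72 in horse 32 and miR-8908k at 6.31 in horse 32. The last 2 rest on 11 and 9 reads. In each group picked out the other 3 values were at 0 and had no spread, so the rate of 1 in 20 does not apply there. No liver level and no share was picked out, the liver of horse 30 included.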

How the results depend on the processing

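The sizes of the log2 differences against tissues at 0 were set by the pseudocount. With a pseudocount of 0.5 the sum in liver over heart was 13.23 and the member median 9.03. With 10 they were 8.91 and 4.77, and the member median in liver over lung was 4.74. Every direction was kept under the alternatives that were run. Of 604 values of single names, 577 moved by less than the spread between libraries or kept their call. Many of these alternatives could not move a value, such as another filter or leaving out a heart library at 0. The count of 577 is therefore no measure of stability. The ratio of the highest to the lowest liver sum ran from 2.16 (without horse 30) to 4.76 with 1 liver left out. At an edit distance of 5 instead of 3, 6 entries resembled the sequence with the values of miR-8908k. With the horse as a replicate block the sum in lung over heart stayed at 2.70, with p = 0.5 by the exact test. With horses 27 and 34 at 0 in both tissues no smaller p was possible, and the 0.125 of untied pairs was out of reach. The block called 116 miRNAs in liver over heart, 131 in liver over lung and 97 in lung over heart. No member was called in lung over heart. The block changed none of these calls by over 1.5 times. With values rescaled to the same total, 163, 134 and 137 were called in these comparisons, against 120, 132 and 99 in the main fit. Planned tests with edgeR and DESeq2 on reads were not run, since the recovery of whole reads from the normalized values was not accepted as established; the read numbers and counting intervals given carry the same doubt. Resemblance could be run against 1 sequence alone, that with the values of miR-8908k, and no calls were made, since no entry lay within an edit distance of 3 of it. Depth limits the lung and heart values: a name under 6 reads is listed at 0.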
